A study of Mus musculus with 2 samples.

Results

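Oxr1, the mouse gene for oxidation resistance protein 1, carried 173 of the Usp39 binding peaks in the deposited list, which holds 17990 peaks in each of 2 passes through the chromosomes. The gene was chosen by its number of peaks, so that count is a description and was not tested. It ranked 7 among all genes by number of peaks, just below 6820431F20Rik with 177 and just above Lncppara with 172, and it held 0.481% of the list. The peaks come from RNA immunoprecipitation with sequencing (RIP-seq) in AML12, a hepatocyte line of the mouse that was given a doxycycline-inducible vector for FLAG-tagged Usp39. The Input library (no antibody) and the IP library (anti-FLAG magnetic beads) both came from cells after 72 h of induction and 5 min of cross-linking by paraformaldehyde, and by the labels there was 1 library of each. The study's reporting summary speaks of several independent experiments for RIP-seq, and no source says whether the list pools them. The medium of both held dexamethasone, and the tagged protein was overexpressed in both. No library without the tag was analysed here. The peak list is a single pooled list with no column for either library, so no value could be compared between Input and IP and the read depth behind a peak is unknown. Intervals given below are exact binomial 95% intervals over peaks, positions or genes and cover counting error only. Those over peaks treat the peaks as independent, although many places are listed once in each pass, so they are likely too narrow.

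Oxr1 belongs to a small family of proteins that share the TLDc domain and is known for protecting cells, neurons above all, from oxidative damage. Several of these proteins bind the V1 sector of the vacuolar proton pump, which acidifies lysosomes. Usp39 is a spliceosome protein that joins when the U4/U6.U5 tri-snRNP meets the pre-mRNA, so an RNA pulled down with it can be an unspliced precursor, in which introns are still present. Mammalian introns are rich in copies of transposable elements, most of them old and altered. Genome files mark such bases, with simple repeats, as masked, and a read from a base with many close copies cannot always be placed at its true origin.

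The sequences of 6 of the 100-base peaks are given because they show what the Oxr1 peaks cover. They were read from the RefSeq sequence of the mm10 (GRCm38) build, on the plus strand of chromosome 15, which is the strand of Oxr1. In the first 5, capitals mark bases inside a word of 30 bases that occurs 10 or more times in the genome, counted on both strands. In the last, capitals mark exon bases.
Strongest peak, intron 11, chr15:41827701-41827800: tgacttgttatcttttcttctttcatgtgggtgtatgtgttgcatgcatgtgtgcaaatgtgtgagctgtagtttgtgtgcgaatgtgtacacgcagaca
Next strongest within an intron, intron 4, chr15:41797801-41797900: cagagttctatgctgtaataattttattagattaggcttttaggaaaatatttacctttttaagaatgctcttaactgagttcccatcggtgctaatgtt
In the long masked run of intron 6, chr15:41806401-41806500: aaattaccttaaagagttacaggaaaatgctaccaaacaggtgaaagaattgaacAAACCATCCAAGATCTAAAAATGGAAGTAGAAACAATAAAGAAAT
Adjoining it, chr15:41806501-41806600: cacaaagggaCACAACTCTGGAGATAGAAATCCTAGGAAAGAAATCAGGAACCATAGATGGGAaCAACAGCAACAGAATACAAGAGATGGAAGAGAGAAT
Most genome copies, intron 11, chr15:41835601-41835700: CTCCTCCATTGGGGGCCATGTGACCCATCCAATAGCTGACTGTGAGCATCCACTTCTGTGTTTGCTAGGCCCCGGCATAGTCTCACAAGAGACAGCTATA
Start of exon 10, chr15:41823301-41823400: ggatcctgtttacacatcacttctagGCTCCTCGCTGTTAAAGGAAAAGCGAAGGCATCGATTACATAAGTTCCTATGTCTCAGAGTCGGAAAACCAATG

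The strongest pair had no base in capitals. In the pair from the long masked run, 45 and 89 of the 100 bases were in capitals, and in the peak with the most copies all 100 were. The exon 10 peak held 74 coding bases and was listed in both passes at the same position, with p-values of 0.000188 and 1.99e-05.

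All 173 peaks lay inside the annotated gene, which spans 413.6 kb on the plus strand of chromosome 15 (41447482 to 41861048), at 0.418 peaks per kb. They were far from evenly spread. The gene has 16 annotated transcripts with 13 different starts, and distances here run from the first of these starts. No peak touched exons 1 to 3 or introns 1 and 2 of the reference transcript, which has 16 exons, although these introns are 88.0 and 117.7 kb long. The first 2 peaks began 223.8 and 238.9 kb into the gene, both at the weakest p-value of the list, 0.000736. The median peak lay at 87.1% of the length of the gene. All 173 peaks thus fell in the downstream part, with 0 in the upstream 50% of the gene, where Asap1 had 54.5% of its peaks, Glis3 70.8% and Tns1 26.0%. These 3 genes also carry many intronic peaks and are used for comparison throughout. Asap1 encodes an Arf GTPase-activating protein, Glis3 a zinc-finger transcription factor and Tns1 a focal adhesion protein.

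**Figure D1:**
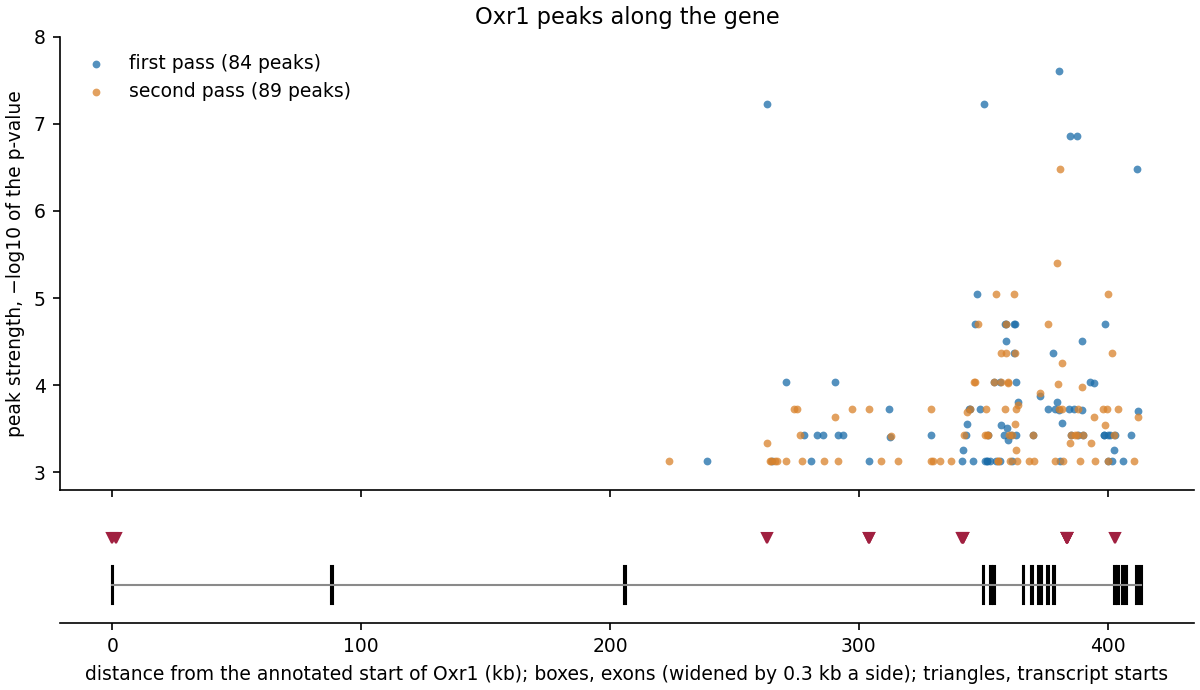
Each point is 1 Oxr1 peak, placed by its distance in kb from the annotated start (x axis) and its strength as −log10 of the p-value (y axis), with blue for the first pass of the list (84 peaks) and orange for the second (89 peaks). Boxes below are exons, triangles are annotated transcript starts, and no point lies left of 223.8 kb.

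The peaks were then grouped by the internal transcript starts of the gene. Upstream of the internal start at 263 kb, 63.6% of the gene held 2 peaks, or 0.00760 per kb. Between the starts at 263 and 304 kb there were 25 peaks (0.608 per kb), and between those at 304 and 341 kb there were 12 (0.322 per kb). The stretch from 341 to 383 kb, 10.2% of the gene, held 89 peaks or 51.4% of them, at 2.12 per kb. From 383 kb to the end there were 45 peaks at 1.49 per kb. Both passes of the list showed this order of density. Transcript amounts were not measured in the list, and whether the empty upstream part was transcribed in these cells was not tested.

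Peaks touched some of the internal starts and not others. At the start at 263 kb, a peak of 100 bases covered the first base of the transcript with a p-value of 5.88e-08. The other pass gave a peak of 200 bases there with 0.000462, a value over more bins that is not like for like, as set out below. At the starts near 304 kb, the peaks had p-values of 0.000736 and 0.000188. Around the starts between 341 and 342 kb, 3 peaks had values from 0.000377 to 0.000736. The 4 transcripts that start between 383 and 384 kb had no peak within 500 bases, and the nearest was 1008 bases or more away. At the start at 403 kb, 2 peaks touched the first exon, the smaller p-value being 0.000377, and 3 lay within 500 bases of the start.

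**Figure D2:**
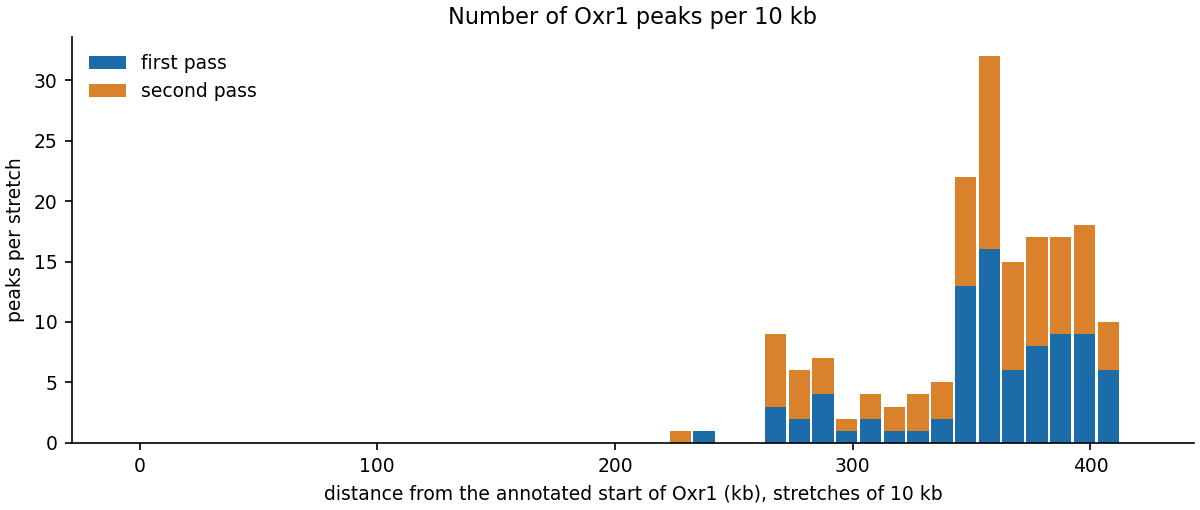
Bars give the number of Oxr1 peaks (y axis) in stretches of 10 kb along the gene (x axis, kb from the annotated start), with the passes of the list stacked. Peaks filled 17 of 43 stretches, and the densest held 32, 16 from each pass.

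By stretches of 10 kb, 17 of 43 held a peak and 7 held 10 or more. The densest (41800001 to 41810000) held 32, with 16 in each pass and p-values from 8.98e-06 to 0.000736. It takes in exons 5 and 6 and most of intron 6. Intron 6 is 11.9 kb long and held 40 peaks (3.37 per kb), which covered 40.4% of it. Intron 11, of 24.4 kb, held 51 peaks (2.09 per kb), and intron 4, of 2.91 kb, held 10 (3.43 per kb). Intron 3 is the longest with 143.8 kb and held 55 peaks, but at 0.382 per kb. Introns 5, 9, 12 and 14 held none, and introns 7, 10 and 13 held 1 each. Intron density thus did not follow length. Of the 173 peaks, 10 overlapped Gm26854, an antisense gene of 30.9 kb inside intron 3. None of these reached a p-value of 1e-05, and reads of the gene and of its antisense partner cannot be told apart, because no source states that strand was kept.

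In the deposited annotation, 154 of the 173 peaks were intronic (89.0%, interval 83.4 to 93.3%). The share was 41.5% over the whole list, 91.6% for Asap1, 97.7% for Glis3 and 85.2% for Tns1. A further 6 Oxr1 peaks were placed in promoters, 5 in 3' UTRs, 4 in 5' UTRs and 4 in exons. The promoter and 5' UTR labels belong to internal transcripts and not to the upstream end of the gene, where no peak lay.

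The peaks that touched exons of the reference transcript did so in 5 of its 16 exons. Exon 9, the longest internal exon with 0.740 kb, carried the widest peak of the gene, 700 bases from 41819801 to 41820500 (p-value 0.000132), and a peak of 600 bases in the other pass (0.000123). These 2 peaks held 662 and 600 coding bases, although the list names them 5' UTR. The last exon, exon 16, was met by a peak of 100 bases across its start with a p-value of 3.26e-07 and by peaks of 500 and 400 bases inside it (0.000232 and 0.000200). The p-values of wide peaks and of 100-base peaks are not like for like, as set out below. Exon 10 had the pair of identical peaks printed above. The widest intronic peaks, of 400 bases each, lay in intron 6 (41807401 to 41807800) and intron 11 (41827101 to 41827500). Exons 12 and 14 had 1 peak each, with 0.000377 and 0.000736. Exons 4 to 8, 11, 13 and 15 had none.

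The distance of intronic peaks to exon edges was set against that of the introns around them. Of the 154, 36 lay within 1 kb of an edge of an annotated Oxr1 exon (23.4%, interval 16.9 to 30.9%). Over all 4040 intronic bins of 100 bases the share was 10.3%, but over the 1418 bins downstream of the start at 263 kb, where nearly all peaks lay, it was 24.0%. Within 100 bases of an edge there were 2 peaks (1.30%, interval 0.158 to 4.61%), against 2.68% of those bins, and within 2 kb there were 71 (46.1%, interval 38.1 to 54.3%), against 37.8%. The median distance was 2272 bases for the peaks and 3674 for the bins. These bins weigh all of the downstream part by its length, whereas peak density there ran from 0.322 to 2.12 per kb between stretches. The part of this uneven spread in the distances was not tested. Of the 10 intronic peaks at 1e-05 or less, 5 lay within 1 kb of an edge (50%). With only 10 peaks this share is imprecise, and it was not compared with that of the bins.

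Most Oxr1 peaks were weak, as were intronic peaks of the list in general. The median −log10 p was 3.43 and the range was 3.13 to 7.61, against a median of 3.68 over the whole list, 3.42 for Asap1, 3.73 for Glis3 and 3.73 for Tns1. Over all intronic peaks of the list the median was 3.42, near that of Oxr1. At the weakest p-value of the list, 0.000736, stood 44 Oxr1 peaks (25.4%), close to the 25.8% of all peaks. Among intronic peaks alone, the share at this value was 26.0% for Oxr1 and 31.9% for the list. At 1e-05 or less stood 12 (6.94%), against 14.4% of all peaks and 8.69% of all intronic peaks.

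The smallest p-value, 2.47e-08, was that of the intron 11 peak at 41827701 to 41827800, and 61.0% of its bases were masked. The peak at the 263 kb start (41710601 to 41710700) and the intron 4 peak (41797801 to 41797900) both had 5.88e-08. Intron 11 peaks at 41832201 and 41834901, each of 100 bases, both had 1.39e-07. None of the last 4 had a masked base. All 12 peaks at 1e-05 or less were 100 bases wide, as were 131 of the 173 (75.7%), and 16.6% of the bases of the 12 were masked. No source states how the p-value of a wider peak was formed from its bins. Values of several 200-base peaks equal the mean of 2 levels of 100-base peaks, as 0.000462 does for 0.000736 and 0.000188. A wider peak can then hold a stronger bin than its value shows, and a limit of 1e-05 works against wider peaks. Width and strength were therefore not compared.

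Taken over all 173 peaks, 35.4% of bases were masked, against 26.2% of the gene body. In the other genes the peaks were less masked than the body, with 15.0% against 17.5% for Asap1, 11.0% against 16.7% for Glis3 and 8.35% against 16.6% for Tns1. Over the whole list 18.4% of peak bases were masked. Of the Oxr1 peaks, 29 (16.8%) were masked over their whole length, against 5.14% of all peaks and 7.74% of all 100-base bins of the gene. Among 71 genes with 50 or more named peaks and at least 90% of them in their own body, peaks were more masked than the body in 4. These were Vps13a (41.1% against 28.6%), Clock (47.6% against 35.3%), Oxr1 and Smc5 (31.6% against 31.4%), and the 3 others are named after their values were seen. Masking was not part of the rule that chose Oxr1, but the gene was chosen with earlier results of these data known. Bases of a gene are not independent and no test was made.

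The higher masked share rested largely on a single place. Masked stretches were joined over gaps of up to 20 bases, and the longest run so formed in Oxr1 spans 4999 bases of intron 6 (41806277 to 41811275). It was met by 26 peaks, 12 from the first pass and 14 from the second, or 5.20 per kb, and 62.0% of the run lay in peaks. These 26 are 15.0% of the Oxr1 peaks. Without them 23.1% of peak bases were masked, below the 25.7% of intronic bins outside the run and near the 24.3% of such bins downstream of the 263 kb start. The 14 other peaks of intron 6 were still more masked than its bins outside the run, with 48.5% against 31.2%. However, 0 of these 14 were wholly masked, against 5.97% of those bins. Of the 29 wholly masked peaks, 21 lay in the run, and 8 of the other 147 peaks (5.44%) were wholly masked. The longest runs of Glis3, Asap1 and Tns1 were 1377, 1361 and 565 bases and were met by 1, 3 and 0 peaks.

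**Figure D3:**
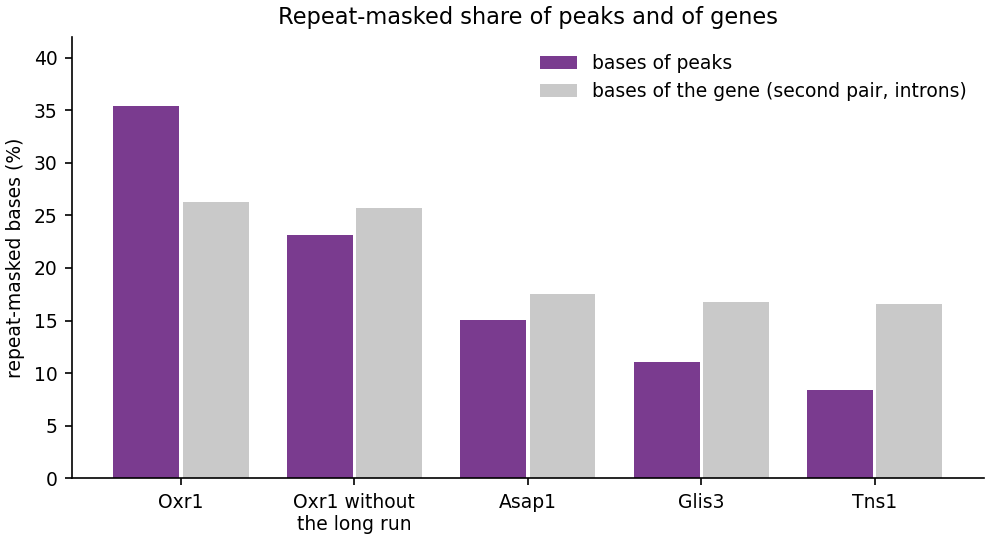
Bars give the percentage of bases that are repeat-masked (y axis) in peaks (purple) and in the gene (grey) for Oxr1, for Oxr1 without the 26 peaks at the long run of intron 6, and for Asap1, Glis3 and Tns1. With the run, Oxr1 peaks stood at 35.4% against 26.2%, and without it at 23.1% against 25.7% of intronic bins.

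Other long masked runs of Oxr1 were treated unequally by position. Of the 8 runs longest in the gene, 5 lie upstream of the 263 kb start, with 1276 to 3415 bases, and none of them was met by a peak. The run at 41835249 to 41837528 in intron 11, with 2280 bases, was met by 7 peaks, and one at 41755424 to 41756603 in intron 3, with 1180 bases, by 1. The long runs with peaks were thus the ones in the part of the gene that held other peaks.

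The 26 peaks of the intron 6 run had a median −log10 p of 3.76, against 3.43 for all Oxr1 peaks, and their smallest p-value was 8.98e-06. The peaks at 41806401 and 41806501, which adjoin each other and come from different passes, both had 1.99e-05. When peaks within 100 bases were joined, the run was met by 4 joined regions. The widest had 2200 bases and 13 peaks (41805901 to 41808100), and another had 1900 bases and 13 peaks. No other joined region of the gene held more than 7 peaks.

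To see how many places in the genome share the letters of a peak, every word of 50 bases was counted on both strands of the chromosomes, and the median over the words of a peak or bin was taken. At 50 bases, 161 of the 173 peaks (93.1%) had a median of 1 copy, against 96.2% of all bins of the gene, and 9 peaks (5.20%) had 10 or more, against 2.39% of bins. With words of 30 bases, 143 peaks (82.7%) had 1 copy, against 92.5% of bins, and 18 (10.4%) had 10 or more, against 5.32%. Of the bins downstream of the 263 kb start, 95.7% had 1 copy at 50 bases and 91.9% at 30. In these bins 2.26% and 5.99% had 10 or more. The study's paired-end reads were longer than these words, so word copies do not give the share of reads that could be placed. In the intron 6 run itself, 22 of the 26 peaks had a median of 1 copy at 50 bases and 7 at 30 bases. Of the 49 bins wholly inside the run, 33 had 1 copy at 50 bases and 24 of these were covered by a peak. Of its 9 bins with 10 or more copies, 2 were covered. In this run, peaks thus covered more of the single-copy bins than of the bins with many copies, but neighbouring bins are not independent and the difference was not tested.

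**Figure D4:**
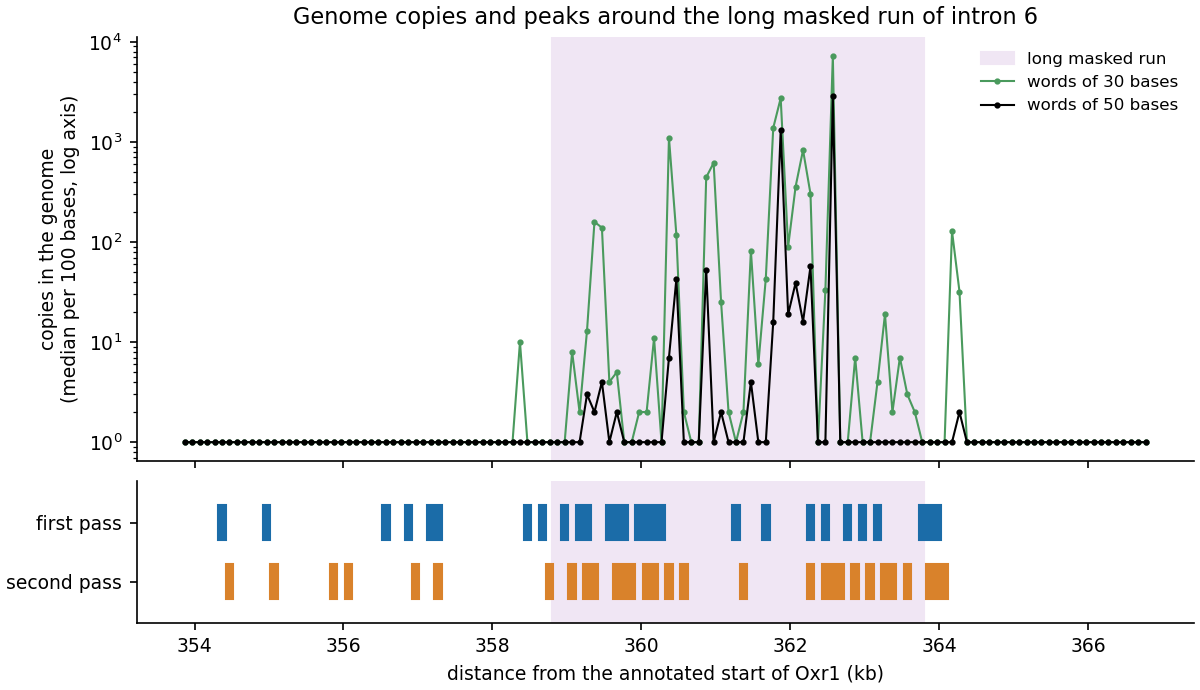
The upper panel gives the median number of genome copies (log axis) of words of 50 bases (black) and 30 bases (green) for each 100 bases along intron 6, by distance in kb from the annotated start, with the masked run of 4999 bases shaded. The lower panel shows the peaks of each pass as boxes. Of the 33 bins of the run with 1 copy at 50 bases, 24 lay under a peak, and of the 9 with 10 or more copies, 2 did.

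The intron 11 run was different. Of its 22 bins, 5 had 1 copy at 50 bases and 11 had 10 or more, and 5 of the 9 bins under its peaks had 10 or more. It held the Oxr1 peak with the most copies, 41835601 to 41835700, whose median was 2630 copies at 50 bases and 16919 at 30, with a p-value of 0.000188. The handling of reads with several equal positions is not stated for the mapping, and its part in these peaks was not tested.

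No source used here states what a pass of the list stands for. Oxr1 had 84 peaks in the first pass and 89 in the second. Their 146 distinct positions shared 26 between the passes (17.8%, interval 12.0 to 24.99%), against 18.9% over the whole list. Only 4 peaks had the same start and end in both. When peaks within 100 bases were joined, 87 regions were left, of which 39 held peaks of both passes (44.8%) and 47 held a single peak. The share was 64.6% for Asap1, 67.2% for Tns1, 73.3% for Glis3 and 48.9% for the list.

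The second pass was shifted to one side. For 33 of the 84 first-pass peaks of Oxr1, the middle of the nearest second-pass peak was exactly 100 bases higher in coordinate (39.3%), and for 2 it was 100 bases lower. Within 200 bases, 47 had it on the higher side and 4 on the lower. Over the whole list 33.8% were 100 bases higher and 2.38% 100 bases lower. The adjoining pair of sequences printed above, which lies in the intron 6 run, is an example. A count of Oxr1 peaks therefore counts many places once in each pass.

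**Figure D5:**
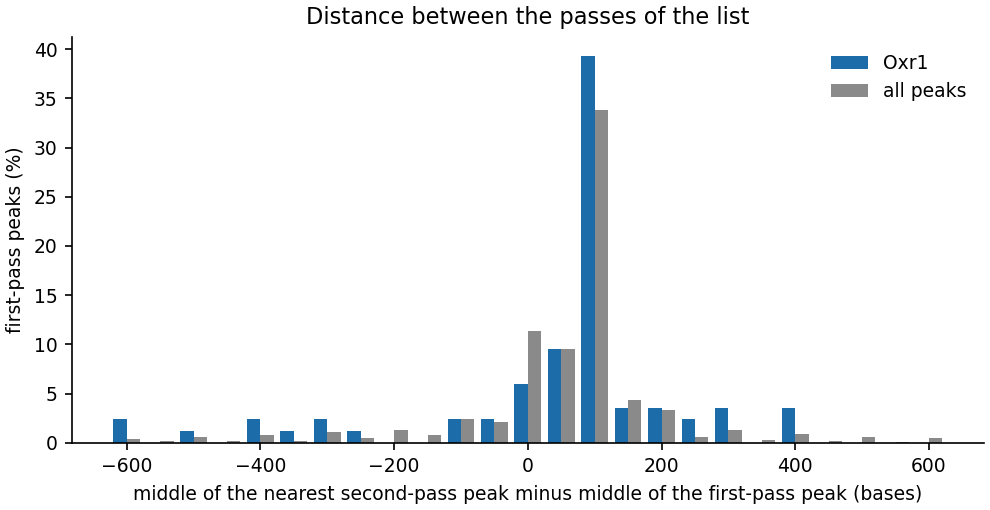
Bars give the percentage of first-pass peaks (y axis) by the distance in bases from their middle to the middle of the nearest second-pass peak (x axis), for Oxr1 (blue) and all peaks (grey). Both have their highest bar at 100 bases, with 39.3% for Oxr1 and 33.8% for all peaks.

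GGCCAC and GCCATA, which come from the study's motif analysis of its RIP-seq peaks, were counted as plain words. Those peaks include the ones of Oxr1, so the counts are a description and no independent check. GGCCAC was found on the gene strand in 5 of the 173 peaks. Among the 131 peaks of 100 bases it was in 3 (2.29%, interval 0.475 to 6.55%), against 1.28% of all 100-base bins of the gene. GCCATA was found in 6 of the 173 peaks, and in 5 of the 131 (3.82%, interval 1.25 to 8.68%), against 1.52% of bins. On either strand the shares among the 131 were 3.82% and 6.11%, against 2.42% and 3.26% of bins. All 4 intervals included the share of the bins.

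The surroundings of Oxr1 were nearly free of peaks. There was none in the 1 Mb before the gene and 2 in the 1 Mb after it, both within 2153 bases of its end. They are named for Abra, a gene that lies on the other strand 3028 bases further on, as is another peak of 100 bases that overlaps the last bases of Oxr1 (41861001 to 41861100). Taken by position, Oxr1 thus had 174 peaks. Zfpm2, a cofactor of GATA factors, and Angpt1, a ligand of the Tie2 receptor, are the other protein-coding genes within 1 Mb and had none.

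The other mouse genes with a TLDc domain had no peak. These were Ncoa7, a nuclear receptor coactivator, Tldc1 (also called Meak7), Tldc2, and Tbc1d24, a regulator of vesicle traffic, so Oxr1, chosen for its peaks, was the 1 gene of 5 in the family with any, against a background of 20.4% of annotated protein-coding genes with at least 1 named peak. Among 8 genes for V1 subunits of the proton pump, 5 had a named peak (62.5%, interval 24.5 to 91.5%), 1 of them only outside its own body. Atp6v1b2 had 7, Atp6v1e1 5, Atp6v1d 3 and Atp6v1f 2, whereas Atp6v1g1 had none and Atp6v1a had none named for it but 7 that overlapped it. Among 20 antioxidant genes, 11 had a named peak (55.0%, interval 31.5 to 76.9%). Gclc, whose enzyme makes the glutathione precursor gamma-glutamylcysteine, led with 142, then Gpx4, a lipid peroxide reductase, with 9, Gsr, glutathione reductase, with 8, and Gpx1, a glutathione peroxidase, with 7. Sod1 and Prdx3, a superoxide dismutase and a mitochondrial peroxiredoxin, had none. Named peaks depend on gene length and RNA amount, and their part in these counts was not tested.

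Of 6 genes that mark hepatocytes (Alb, Apoa1, Apob, Ttr, Hnf4a and Trf), none had a peak (interval 0 to 45.9%), and this interval includes the 20.4% of all protein-coding genes. The list gives no expression level by which the labelled cell type could be checked. Usp39, the tagged gene itself, had 8 peaks.

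The genes most like Oxr1 were sought among the 102 with 50 or more named peaks, by the sum of the differences in rank for intron share, peaks per kb and median −log10 p. They were Aldh1a1 (51 peaks, 94.1% intronic, 0.338 per kb), a retinal dehydrogenase, then Polr2b (79 named peaks, 92.4% intronic), an RNA polymerase II subunit, and Zbtb16 (72 peaks, 93.1%, 0.396 per kb), a zinc-finger transcription factor. The density in this measure counts peaks inside the gene body, whereas intron share and strength are over all named peaks. Of the Polr2b peaks only 14 lay in its own body (0.357 per kb), so its likeness mixes different peaks. Masking was not part of the measure. Peaks of Aldh1a1 and Zbtb16, all inside their own genes, had 10.1% and 8.94% masked bases, against 31.4% and 17.2% of the gene body.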

How the data were processed

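Members and gene lists were chosen with earlier results of these data known. Before deposit, the authors used Trim Galore (0.6.1) for trimming, FastQC (0.11.9) for quality and Bowtie (1.2.3) against ribosomal RNA. Alignment was with HISAT2 on the mm10 build, its version for RIP-seq not being stated. Peaks came from Piranha with bins of 100 bases, and no source says whether Input was used in the calling. Each peak has the p-value of the caller as the authors deposited it, unadjusted as far as stated. The count of peaks per gene is deposited by the authors as well and counts peaks, not reads, so depth is unknown.

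Peaks named Oxr1 were set against the GENCODE M21 annotation and the soft-masked RefSeq sequence of the same build. Masking has no repeat families here. Genome copies of words of 50 and 30 bases were counted on both strands of chromosomes 1 to 19, X and Y. Bins were the 100-base bins of the list's grid wholly inside the gene. With 1 library in each group no test was possible. Some shares carry an interval, which is then the exact binomial 95% interval. Steps were tested on simulated data. Python (version 3.11.15), numpy (2.4.6), pandas (2.3.3), scipy (1.17.1) and numba (0.67.0) were used. Named genes were Oxr1, its TLDc family, protein-coding neighbours within 1 Mb, 3 comparison genes, up to 4 members with and 2 without peaks from the pump and antioxidant lists, and the 3 genes most like Oxr1. Single peaks named were the 5 strongest, the widest and those of the densest stretch. The hepatocyte genes and Usp39, peaks at exons and starts, and the peak with the most genome copies were added after the values were seen. The sequence of 1 peak of the long masked run is not reported here. Alternatives tried were the limit of 1e-05 on p-values, each pass alone, joined peaks, peaks by position, single-bin peaks, other exon sets and limits, and, chosen after the data were seen, leaving out the long masked run.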

Additional observations from a re-analysis of the deposited data

How the results depend on the processing

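Of 44 alternatives over 8 results, 22 moved the value. Counts and peaks per kb must fall when peaks are left out or joined, and the median −log10 p must rise at a stricter limit. Those moves were fixed in advance. With 1 library in each group no replicate could be left out, and no paired analysis was possible because each group has 1 library. At a p-value of 1e-05 or less, 12 peaks were left, all inside the gene (0.0290 per kb), 83.3% of them intronic, with 16.6% masked bases, 5 of 10 intronic ones (50%) within 1 kb of an exon edge and a median −log10 p of 6.49. No position was then in both passes (0%). All 12 were 100 bases wide, and this limit works against wider peaks, so these shares do not describe strength alone. The first pass alone gave 84 peaks (0.203 per kb) and the second alone 89 (0.215 per kb), all inside the gene, with 36.5% and 34.4% masked bases. Joining peaks within 100 bases left 87 (0.210 per kb). The share of intronic peaks near an exon edge was 11.0% at a limit of 500 bases and 46.1% at 2 kb. The share of positions in both passes was 2.37% for identical peaks and 44.8% within 100 bases. Without the long masked run, an alternative chosen after the data were seen, the masked share was 23.1%. Taking peaks by position, single-bin peaks alone, the own overlap with exons and exons of coding transcripts moved none of the values they were run on. Depth is unknown, and p-values take few distinct levels, so the order of weak peaks is not resolved.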
